A study of Mus musculus with 8 samples.

Results

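Neurotrophins and their receptors were examined in sorted hepatic stellate cells of mice with induced deletion of Lhx2 and of their floxed controls. The 5 genes were the ligand gene Bdnf, the Trk receptor genes Ntrk2 and Ntrk3, the p75 receptor gene Ngfr and the sortilin gene Sort1, out of 19938 genes with a level in the table. A gene was included when a probe set of the array carried its symbol alone in the platform annotation, and each of the 5 had 1 such probe set. Ngfr, Ntrk2 and Sort1 had knockout and control arrays that did not overlap, as did 12.7% of all genes, and for Ngfr the gap was 0.009. Ntrk2 and Sort1 rose in the knockout by about 0.42 and 0.49 on the log2 scale. Ntrk2 was dim, with a control mean of 6.70, and Sort1 passed in only 1 of 8 omissions of a single array. The difference of Ngfr missed the adjusted threshold, and Bdnf and Ntrk3 did not pass, at low levels on every array.

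The knockout group held 4 arrays of cells from Lhx2 floxed mice that carried the Mx1Cre transgene (replicates 5 to 8), and the control group 4 arrays of cells from Lhx2 floxed mice that lacked it (replicates 1 to 4). Both groups had a C57BL/6J background, both had received the interferon inducer poly(I:C) 3 times, and cells were taken 2 weeks later, so the controls carry the same floxed allele and the same interferon stimulus. Stellate cells are the vitamin A-storing pericytes of the liver, and the cells here were enriched by density centrifugation and then sorted by the autofluorescence of their retinoids. Mx1Cre is active in many interferon-responsive cells and only the knockout carried it, so deletion in stellate cells, deletion in other cells and any action of Cre itself cannot be told apart. The labels name neither the age of the mice nor the animal behind each array, so p-values measure the spread between arrays, part or all of which may be technical. The series title names stellate cell activation as the question.

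Neurotrophins are secreted growth factors that are made as precursors and cleaved by proprotein convertases. Mature BDNF signals through the receptor tyrosine kinase TrkB, the product of Ntrk2, and neurotrophin-3 through TrkC, the product of Ntrk3. All neurotrophins bind the p75 receptor encoded by Ngfr, a death-domain receptor of the tumour necrosis factor receptor family, and the uncleaved precursors bind p75 together with sortilin, the product of Sort1, which also sorts proteins between Golgi and lysosome. Stellate cells carry several genes otherwise known from nerve and glia, and p75 on these cells has been linked in rodents to their death and their differentiation.

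The promoter windows of the receptor gene whose rise held best and of the p75 gene are shown because they are the regulatory sequences of Ntrk2 and Ngfr nearest to their annotated starts. Each window runs from 250 bases before to 50 bases after an annotated start in RefSeq (GRCm38.p6), 5′ to 3′ on the strand of the gene, and capitals mark the GC box GGGCGG or its complement CCGCCC. Ntrk2 lies on chromosome 13 and its window spans chr13:58806319-58806618 on the plus strand, and Ngfr lies on chromosome 11 with its window at chr11:95587649-95587948 on the minus strand.
Ntrk2: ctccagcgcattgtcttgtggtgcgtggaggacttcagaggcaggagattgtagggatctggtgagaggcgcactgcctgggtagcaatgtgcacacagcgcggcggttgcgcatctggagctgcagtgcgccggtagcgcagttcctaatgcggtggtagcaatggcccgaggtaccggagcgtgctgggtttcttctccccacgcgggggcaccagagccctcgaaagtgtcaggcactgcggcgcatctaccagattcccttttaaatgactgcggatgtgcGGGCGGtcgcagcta
Ngfr: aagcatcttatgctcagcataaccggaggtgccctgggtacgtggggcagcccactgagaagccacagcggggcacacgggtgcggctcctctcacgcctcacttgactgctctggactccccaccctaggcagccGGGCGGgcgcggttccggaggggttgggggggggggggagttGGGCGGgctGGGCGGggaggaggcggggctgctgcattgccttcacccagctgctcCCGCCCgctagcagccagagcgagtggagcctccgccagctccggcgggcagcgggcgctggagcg
The Ntrk2 window held 1 GC box and the Ngfr window held 4, counted on both strands, and 35.7% of all 32851 promoter windows of this length held at least 1. The motif TAATTA, a core sequence of LIM homeodomain factors that reads the same on both strands, was in neither window and in 5.29% of all windows. It was also in none of the 7 windows of Bdnf, a gene with several alternative starts on chromosome 2. A letter match or its lack is a description of these windows alone. Of the 5 genes, 3 had a window in the table, and Ntrk3 and Sort1, on chromosomes 7 and 3, are named only.

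Levels are on the log2 scale, and differences are knockout minus control. Array medians lay between 7.42 and 7.47. As a guide to what an unexpressed gene reads on these arrays, the 95th percentile over 1194 odorant and pheromone receptor genes (Olfr and Vmn) was taken, which was 6.77. The median of these genes was 5.40, so the guide marks the upper end of their range and not their usual level. Lhx2, the deleted gene, had 11.09, 11.24, 11.35 and 11.49 in the knockout arrays and 12.07, 11.88, 11.94 and 11.92 in the control arrays, a difference of -0.66 (SE 0.09, limma adjusted p = 0.00136). Which exons are floxed is not in the labels, so this probe set may not read the deletion itself. Over all genes tested, 7.38% passed an adjusted p of 0.05 (3.76% higher and 3.63% lower in the knockout), and the arrays of the groups did not overlap for 12.7%. A group mean above the guide level was reached by 13827 of the 19938 genes. Fitted alone, 775 of these were higher and 733 lower, a larger share than over all genes. Of the 5 genes here, 2 passed, both higher, and 3 had groups that did not overlap. The 9 measured stellate cell markers were bright in both groups, with mean levels of 13.14 to 13.16 in knockout arrays and 13.25 to 13.36 in control arrays. In sorted bulk RNA, fewer cells of a type and less RNA per cell cannot be told apart.

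Bdnf, the ligand, did not pass the test. Its log2 levels were 6.75, 6.73, 6.49 and 6.53 in knockout arrays 5 to 8, and 6.76, 6.65, 6.45 and 6.58 in control arrays 1 to 4. The groups overlapped fully and every array lay under the guide level of 6.77 and above the median of the Olfr and Vmn genes. The difference was 0.02 (SE 0.09, 95% interval -0.18 to 0.21, limma adjusted p = 0.961). At this level a change of the transcript may not be detectable, and 1 probe set cannot separate the transcripts of the different Bdnf starts. Ntf5, which encodes neurotrophin-4, averaged 6.47 ± 0.11 in the knockout and 6.51 ± 0.17 in the control group (SD, n = 4 each) and also lay below the guide level.

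Ntrk2, the TrkB receptor gene, was higher in the knockout. Its log2 levels were 7.26, 7.11, 7.01 and 7.08 in knockout arrays 5 to 8, and 6.84, 6.73, 6.64 and 6.59 in control arrays 1 to 4. The lowest knockout array stood 0.17 above the highest control array. All 4 knockout arrays lay above the guide level of 6.77, and 1 of 4 control arrays did. The mean was 7.12 ± 0.11 in the knockout and 6.70 ± 0.11 in the control group (SD, n = 4 each), a difference of 0.42 (SE 0.07, 95% interval 0.25 to 0.58) or 1.33-fold (limma adjusted p = 0.00818). The two-sided exact permutation test over arrays gave p = 0.0286, which is the lowest p this design can reach. The control level was close to the guide level, so the size of the rise is uncertain. Array values can compress differences of dim genes, which was not tested here. The array distances to the median of the Olfr and Vmn genes were 1.83, 1.70, 1.65 and 1.70 in the knockout and 1.38, 1.33, 1.29 and 1.17 in the control arrays, again without overlap. Full-length TrkB and the truncated form that lacks the kinase come from the same gene, and 1 probe set does not tell them apart.

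Ntrk3, the TrkC receptor gene, did not pass either. Its log2 levels were 6.32, 6.25, 6.35 and 6.21 in knockout arrays 5 to 8, and 6.39, 6.35, 6.37 and 6.24 in control arrays 1 to 4. The groups overlapped and all 8 arrays lay under the guide level and above the median of the Olfr and Vmn genes. The difference was -0.05 (SE 0.06, 95% interval -0.18 to 0.07, limma adjusted p = 0.758).

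Ngfr, the p75 gene, was bright on every array, and its difference did not pass the adjusted threshold. Its log2 levels were 12.73, 12.67, 12.82 and 12.64 in knockout arrays 5 to 8, and 13.16, 12.85, 12.95 and 12.83 in control arrays 1 to 4. The groups did not overlap, but the highest knockout array and the lowest control array were 0.009 apart. The mean was 12.72 ± 0.08 in the knockout and 12.95 ± 0.15 in the control group (SD, n = 4 each), a difference of -0.23 (SE 0.08, 95% interval -0.41 to -0.05), which leaves 85.1% of the control level. The unadjusted limma p was 0.0177 and the adjusted p 0.147, while the two-sided exact permutation test again reached its lowest p of 0.0286. Control 1 was the highest control array for Ngfr, and without it the difference was -0.16 (limma adjusted p = 0.231). A level near 13 lies towards the top of the value range, which ends at 14.42. Whether brightness compressed the difference of Ngfr was not tested. Among the stellate cell markers, 3 of 9 fell, Rgs5 (-0.52), Hand2 (-0.48) and Reln (-0.26), and 0 rose in limma, where 3.63% of all genes fell and 3.76% rose. Lrat, Des and Colec11 had differences of 0.10, 0.07 and 0.02, and Pdgfrb, Dcn and Ecm1 of -0.03, -0.12 and -0.11. The mean levels of the stellate cell markers did not overlap between groups, and their part in the difference of Ngfr was not tested.

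Sort1, the sortilin gene, was higher in the knockout, with more spread among the knockout arrays than among the controls. Its log2 levels were 9.38, 9.93, 9.86 and 9.51 in knockout arrays 5 to 8, and 9.14, 9.10, 9.14 and 9.34 in control arrays 1 to 4. Knockout 5 stood only 0.04 above control 4, and the other 3 knockout arrays were clear of all controls. The mean was 9.67 ± 0.27 in the knockout and 9.18 ± 0.11 in the control group (SD, n = 4 each), a difference of 0.49 (SE 0.12, 95% interval 0.21 to 0.77) or 1.40-fold. The limma adjusted p was 0.0448, and the two-sided exact permutation p was 0.0286, its lowest. The call did not survive the loss of most single arrays: it held without knockout 5 (adjusted p = 0.0172), and without each of the other 7 arrays in turn limma's adjusted p lay between 0.0538 and 0.125, at differences of 0.40 to 0.54.

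**Figure D1:**
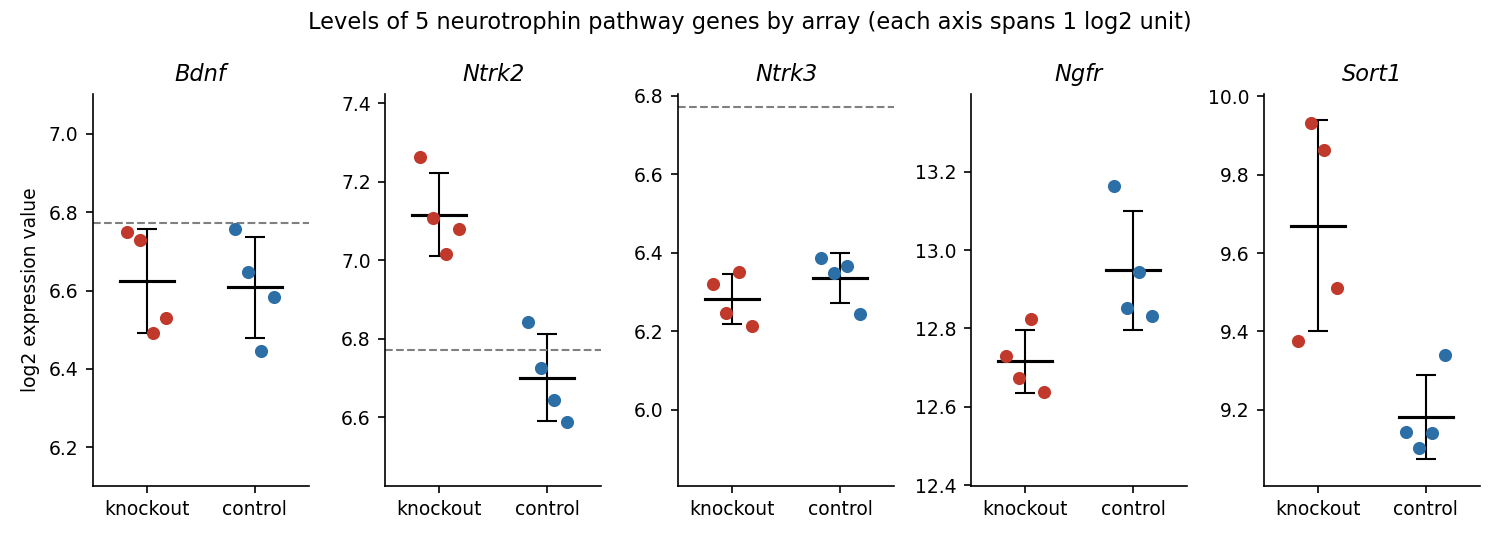
Log2 expression values of Bdnf, Ntrk2, Ntrk3, Ngfr and Sort1 in the 4 knockout arrays (left, red) and the 4 control arrays (right, blue); points are arrays, bars the mean ± SD, and the dashed line the 95th percentile (6.77) of the Olfr and Vmn receptor genes. Each vertical axis spans 1 log2 unit at its own position. Ntrk2, Ngfr and Sort1 do not overlap between groups, while Bdnf and Ntrk3 overlap and lie under the dashed line.

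The 3 receptor genes without overlap differed in how their calls held when arrays were left out. Ntrk2 passed in all 8 single-array omissions, with differences of 0.37 to 0.46 and a limma adjusted p of at most 0.0281, and without control 1 and control 4 together (0.43, adjusted p = 0.0354). Ngfr passed in none, with differences of -0.27 to -0.16. Sort1 passed in 1 of 8, and without control 1 and control 4 its difference was 0.55 at a limma adjusted p of 0.145.

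**Figure D2:**
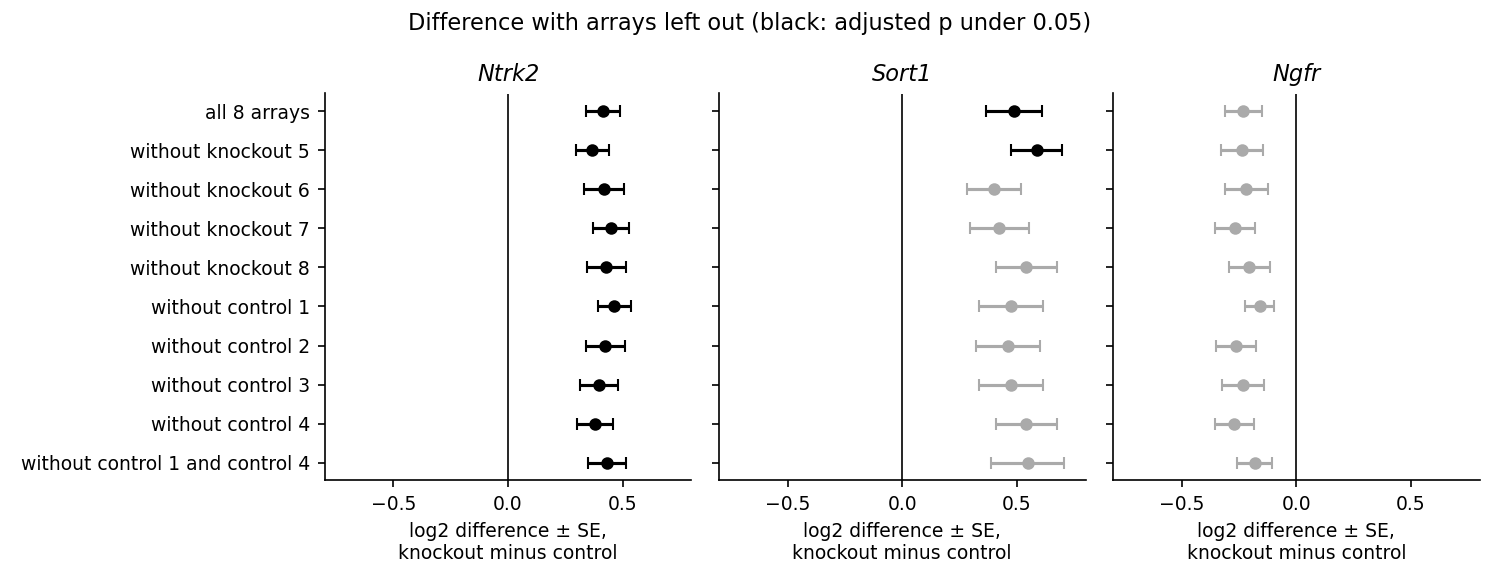
Log2 difference ± SE, knockout minus control, of Ntrk2, Sort1 and Ngfr with all 8 arrays and with the named arrays left out; black points had a limma adjusted p under 0.05 and grey points did not. Ntrk2 stays between 0.37 and 0.46 and passes each time, Sort1 passes with all arrays and without knockout 5, and Ngfr stays below 0 and does not pass.

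Nerve and glial cells also use these receptors, so their markers are given beside the receptor results. For the marker counts below, 3.76% of all genes passed as higher and 3.63% as lower in limma. The mean log2 level of 9 measured Schwann cell markers was 7.85 to 7.94 in knockout arrays and 7.75 to 7.99 in control arrays. Of these markers, 1 rose, Pmp22 (0.35, SE 0.05, limma adjusted p = 0.00346), a myelin protein gene that many other cell types express, at a control level of 12.98. Egfl8, the next brightest, had a difference of 0.01, and Sox10, the defining transcription factor of these cells, averaged 7.66 in the knockout and 7.69 in the control group. Of 11 neuron markers 0 passed in limma, and at an unadjusted p of 0.05 only Rbfox3 did, as 1 of the 11 (-0.15, adjusted p = 0.115). Their mean level was 6.55 to 6.64 in knockout arrays and 6.50 to 6.69 in control arrays, and 6 of the 11 lay at or below the guide level in both groups, as did 2 of the 9 Schwann cell markers. The brightest, Elavl3 and Rbfox3, averaged 7.30 and 7.12 in the knockout and 7.34 and 7.28 in the control group. Of 10 portal fibroblast markers, 5 rose, and none lay at or below the guide level. Their mean level was 8.68 to 8.89 in knockout arrays and 7.74 to 7.98 in control arrays. The rises were of Cd34 (3.08), Dpep1 (2.37), Dpt (2.28), Eln (0.81) and Mfap4 (0.39). Clec3b (0.14), Gli1 (-0.01), Pi16 (-0.01), Thy1 (-0.10) and Entpd2 (-0.29) did not pass in limma. The mean thus shifted mainly through Cd34, Dpep1 and Dpt. In control arrays 1 to 4 the mean of the portal fibroblast markers was 7.74, 7.90, 7.98 and 7.96. Ntrk2 had 6.84, 6.73, 6.64 and 6.59 there, and Sort1 9.14, 9.10, 9.14 and 9.34. The median of the Olfr and Vmn genes was also highest in control 1, at 5.47. The part of portal fibroblasts in the rises of Ntrk2 and Sort1 was not tested. Hepatocytes and endothelium carried into the sort varied within both groups, with mean marker levels of 9.09 to 10.66 in knockout and 8.64 to 10.86 in control arrays for hepatocytes, and of 8.95 to 10.21 in knockout and 8.99 to 11.42 in control arrays for sinusoidal endothelium. Of these, 0 of 12 hepatocyte and 1 of 12 endothelial markers passed in limma (unadjusted p under 0.05 for 1 and 2). The endothelial markers tended to be lower in the knockout, with a median difference of -0.72, beside 0.05 for the hepatocyte markers. What part this had in the results for the 5 genes was not tested. The mean level of 6 platelet markers did not overlap between groups, at 7.79 to 7.84 in knockout and 7.89 to 8.08 in control arrays. Of these 6, Pf4 rose (0.69) and Itga2b fell (-1.44), both named after their values were seen. Of 10 macrophage markers, 1 fell in limma, while 4 were under 0.05 before adjustment, and their mean level was 7.36 to 7.84 in knockout and 7.44 to 8.33 in control arrays. Their part in the results for the 5 genes was not tested. Of the smooth muscle markers 2 of 8 rose, of the mesothelial markers 1 of 7 fell, and of the 7 bile duct and 9 lymphocyte markers 0 passed in limma (also 0 at an unadjusted p of 0.05), with mean levels that overlapped between groups in all 4 lists.

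Among the other receptors of the family, Sorcs2 rose. Sorcs2 encodes a sortilin-related receptor of the VPS10 family that, like sortilin, pairs with p75 as a receptor of neurotrophin precursors. Its log2 levels were 9.49, 9.29, 9.33 and 9.14 in knockout arrays 5 to 8, and 8.50, 8.24, 8.12 and 8.40 in control arrays 1 to 4. The groups stood well apart, with a difference of 1.00 (SE 0.10, limma adjusted p = 0.000229) that passed in all 8 single-array omissions. Of the 6 measured genes of the list of other neurotrophins and receptors, Sorcs2 alone passed, and the list median was -0.002 beside -0.02 for all genes. That was 16.7% of the list, beside 7.38% of all genes, and 2 of the 6 had a group mean above the guide level. The related Sorcs1, Sorcs3 and Sorl1 had group means of at most 6.72 and differences of -0.01, -0.16 and 0.01. Nradd, a p75-like death-domain gene named after its values were seen, had 9.59, 9.59, 9.50 and 9.37 in knockout arrays and 9.21, 9.14, 9.42 and 9.37 in control arrays, and did not pass (0.23, limma adjusted p = 0.147).

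Among genes that cleave neurotrophin precursors or control that cleavage, 2 convertases and a plasminogen activator rose. Of 12 measured genes, 3 rose, 1 fell and 8 did not pass, with a list median of 0.006. Passed genes were 33.3% of this list, beside 7.38% of all genes, whose median was -0.02. Of the 12, 9 had a group mean above the guide level, so the shares are not matched for level. The rises were of Pcsk6, a proprotein convertase (2.52, SE 0.12, limma adjusted p = 2.61e-06), Plat, tissue plasminogen activator, which generates plasmin, a protease that cleaves the BDNF precursor (1.07, SE 0.16), and Pcsk5, another convertase (0.62, SE 0.05). Serpini1, neuroserpin, an inhibitor of tissue plasminogen activator, fell by 0.44 (SE 0.08). Furin, the widely used convertase, averaged 10.71 in the knockout and 10.70 in the control group. These proteases have many substrates besides neurotrophins. Without control 1 and control 4, Serpini1 had a limma adjusted p of 0.0515.

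Among signalling partners of p75, presenilin 2 fell. Of 20 measured partners and effectors, 1 fell, 0 rose (3 at an unadjusted p of 0.05) and 19 did not pass, with a list median of 0.01. That is 5% of the list, below the 7.38% that passed over all genes, where the median was -0.02. Of the 20, 18 had a group mean above the guide level, so the shares are not matched for level. The product of Psen2 is a catalytic subunit of the gamma-secretase that cleaves p75 within the membrane. Psen2 had 10.75, 10.67, 10.69 and 10.71 in knockout arrays 5 to 8, and 11.33, 11.30, 11.55 and 11.48 in control arrays 1 to 4. The groups did not overlap and the difference of -0.71 (SE 0.07, limma adjusted p = 0.000149) passed in all 8 single-array omissions.

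Adaptors and effectors of Trk receptors included 4 that fell in limma. Of 29 measured genes 25 did not pass and 0 rose (2 at an unadjusted p of 0.05), and the list median was -0.04. Those that passed made up 13.8% of the list, beside 7.38% of all genes, whose median was -0.02. Of the 29, 26 had a group mean above the guide level, beside 13827 of all 19938 genes, so the shares are not matched for level. The largest fall was of Gab1, a docking protein of receptor tyrosine kinases, which had 12.05, 12.08, 12.11 and 12.03 in knockout arrays 5 to 8, and 12.77, 12.72, 12.68 and 12.68 in control arrays 1 to 4. Its arrays were tight within each group, with a difference of -0.65 (SE 0.05, limma adjusted p = 3.58e-05). Map2k1, the kinase MEK1, fell by 0.37 (SE 0.07), Sos2, a Ras exchange factor, by 0.33 (SE 0.07), and Rapgef1, a Rap1 exchange factor, by 0.24 (SE 0.05). Sos2 lost its call without knockout 5, knockout 6, control 1 or control 2 (limma adjusted p up to 0.0808), and Rapgef1 without knockout 6 or control 2 (up to 0.0548). Without control 1 and control 4 Map2k1 had an adjusted p of 0.132. These proteins serve many receptors besides the Trk family.

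Feedback targets of the ERK pathway, which runs downstream of Trk and other growth factor receptors, had 3 falls among 10 measured genes and 0 rises in limma (also 0 at an unadjusted p of 0.05), and 7 did not pass, with a list median of -0.21. The share that passed was 30%, beside 7.38% of all genes, whose median was -0.02. All 10 had a group mean above the guide level, so the shares are not matched for level. Dusp4 and Dusp6, phosphatases of ERK-family kinases, fell by 1.31 (SE 0.16) and 0.40 (SE 0.06). Spred2, an inhibitor of Ras signalling, fell by 0.26 (SE 0.06), a call that was lost without knockout 5, knockout 6, control 2 or control 4 (limma adjusted p up to 0.0806). Dusp4 averaged 7.63 ± 0.21 in the knockout and 8.94 ± 0.31 in the control group (SD, n = 4 each).

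**Figure D3:**
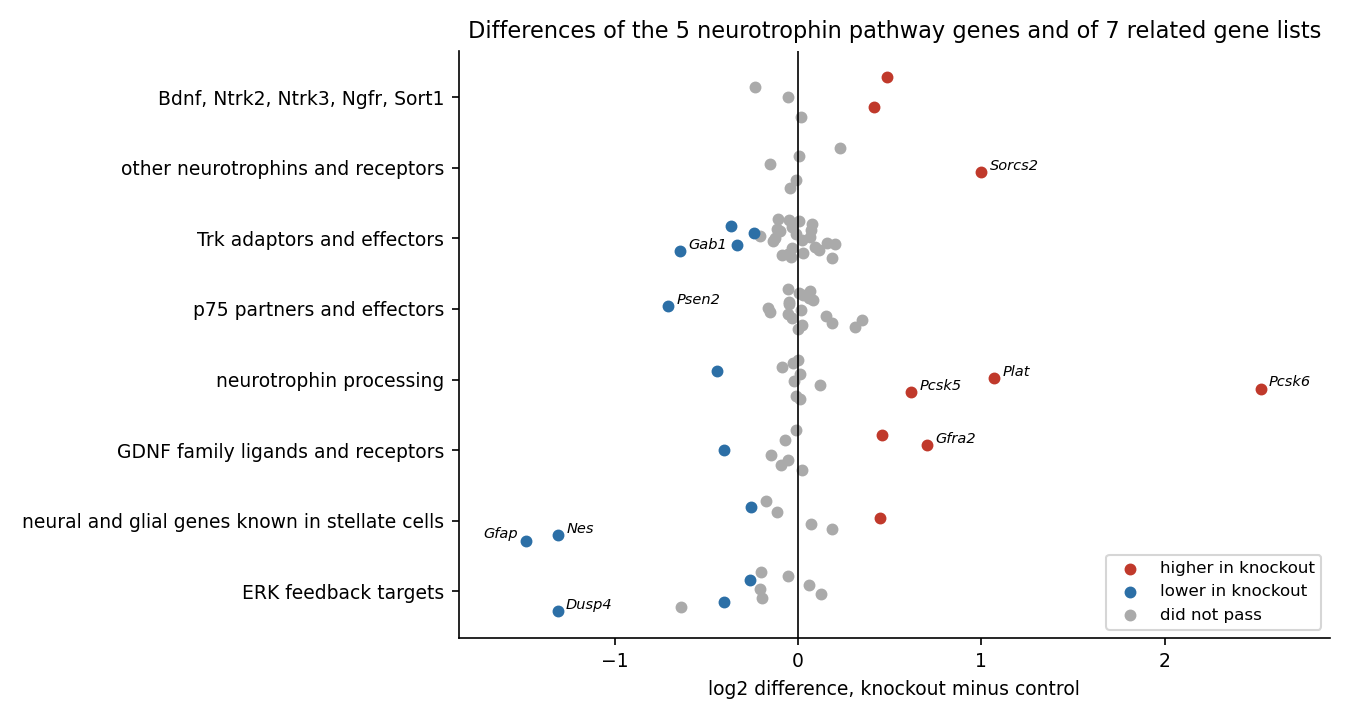
Log2 difference, knockout minus control, of the 5 neurotrophin pathway genes (top line) and of every measured gene in 7 related lists; red and blue points passed a limma adjusted p of 0.05 as higher or lower in the knockout, grey points did not, and passed genes with differences beyond 0.6 are named. Passed genes of the Trk adaptor, p75 partner and ERK feedback lists lie on the lower side, while Pcsk6 at 2.52 is the farthest point on the higher side.

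Other neural and glial genes that stellate cells are known to express included 3 that fell, Gfap, Nes and Reln. Of 8 measured, 3 fell, 1 rose and 4 did not pass, with a list median of -0.14. Passed genes made up 50% of this list, beside 7.38% of all genes, whose median was -0.02. All 8 had a group mean above the guide level, so the shares are not matched for level. Gfap, a glial intermediate filament, fell by 1.48 (SE 0.07), with 7.98 ± 0.09 in the knockout and 9.46 ± 0.10 in the control group (SD, n = 4 each). Nes, nestin, fell by 1.31 (SE 0.15) and Reln, reelin, by 0.26 (SE 0.05), and Prnp, the prion protein gene, rose by 0.45 (SE 0.05). Reln lost its call without control 1 and control 4 (limma adjusted p = 0.056). Reln is also 1 of the 3 stellate cell markers that fell, so this list and the stellate cell markers are not separate. The mean level of those markers, given above, was lower in the knockout without overlap, and its part in these falls was not tested. The differences of Ngfr and of these genes were not tested against each other.

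**Figure D4:**
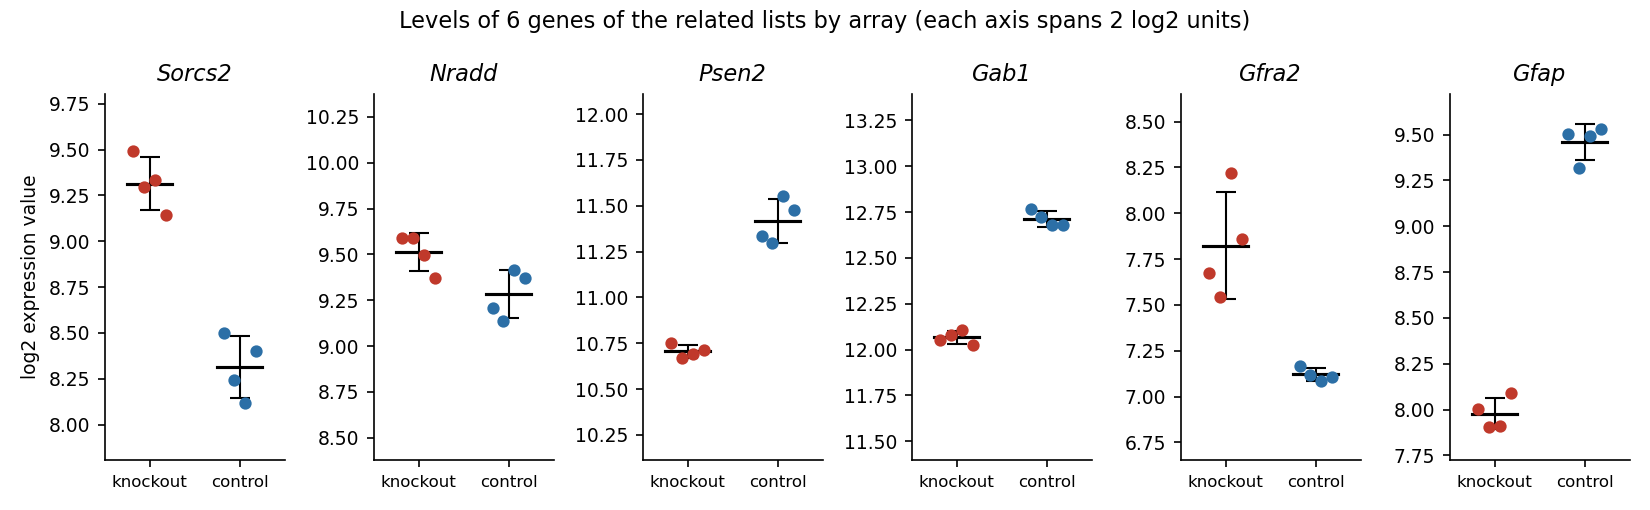
Log2 expression values of Sorcs2, Nradd, Psen2, Gab1, Gfra2 and Gfap in the 4 knockout arrays (left, red) and the 4 control arrays (right, blue), with the mean ± SD; each vertical axis spans 2 log2 units at its own position. The groups do not overlap except for Nradd, with Sorcs2 and Gfra2 higher and Psen2, Gab1 and Gfap lower in the knockout.

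The genes with profiles most like the passed receptors were found by the root mean square difference over the 8 arrays, each profile centred on its own mean, among 13207 genes. The nearest to Ntrk2 were Clca3a1, Pdxk and Per3, at distances of 0.051, 0.057 and 0.069 log2 units, with differences between groups of 0.37, 0.47 and 0.41. The nearest to Sort1 were Socs5, Pcdhb21 and Tbc1d31, at 0.091, 0.115 and 0.117, with differences of 0.51, 0.43 and 0.42. Pcdhb21 did not pass the adjusted threshold (limma adjusted p = 0.0697), and the other 5 genes did. A small distance to a passed receptor fixes a similar group difference in advance, so these differences describe the choice and add no support.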

How the data were processed

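Biotin-labelled cDNA from 150 ng RNA per sample was measured on Affymetrix mouse gene arrays, 8 in all. The deposited log2 values are the authors' RMA (Robust Multichip Algorithm) output, per the labels' protocols. RMA corrects background, brings arrays to a common distribution and summarises probes. Array values can compress differences of dim and very bright probe sets, which was not tested here. The RMA version is not given in the sources used here, nor are scan dates, so no batch was tested.

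Of 35556 probe sets, 21789 carried 1 gene symbol, 1621 several and 12146 were unnamed here. The probe set with the highest mean stood for a gene, which gave 19938 genes. Knockout minus control was fitted over all of them in R 4.3.3 by limma 3.58.1 (lmFit, eBayes), and two-sided p-values were adjusted by Benjamini-Hochberg with a threshold of 0.05. Single genes had exact permutation tests over 70 assignments of arrays. No detection calls were used, no dim gene was left out, and the number of arrays limits the precision. The genes and lists were chosen with earlier results of these data known, and list counts carry no test. Genes named were Lhx2, the 5 genes, Ntf5, the passed genes of each list (up to 4 per direction), the 3 genes nearest to each passed receptor, and the 2 brightest and any passed Schwann cell and neuron markers; genes named to complete a description, such as Nradd, Furin, Sox10, Gdnf, Ret, Pf4, Itga2b, Sorcs1, Sorcs3 and Sorl1, were chosen after their values were seen. On simulated data for this comparison (19938 genes), limma recovered 86% of 50 genes changed by 0.5, 98% of 50 changed by 1 and 100% of those changed by 2 or 3, with 15 false calls.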

Additional observations from a re-analysis of the deposited data

Results flagged for a closer look

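The Sort1 level of control 4, 9.34, stood apart from the other 3 control arrays, with a gap of 0.197 to the nearest of them that made up 0.83 of the group's range, against a critical value of 0.829. Of 12 groups examined (the 5 genes and Lhx2 in both groups), this was the 1 that met Dixon's criterion, and chance does so for about 1 in 20 groups. Without control 4 the Sort1 difference was 0.54 (limma adjusted p = 0.0538).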

How the results depend on the processing

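No paired analysis was possible because the knockout arrays are numbered 5 to 8 and the control arrays 1 to 4, with no number shared. Ntrk2 kept its direction and its call in every alternative except a 1.5-fold minimum change, Ngfr kept its direction and did not pass in any, and Ntrk3 and Bdnf were left out by the filter at the 95th percentile of olfactory genes. Bdnf lay between -0.037 and 0.066 over the single-array omissions, below 0 without knockout 5, knockout 6 or control 3. Sort1 did not pass after median centring (0.49, limma adjusted p = 0.0637), after centring on the olfactory genes, which was chosen after seeing the data (0.50, adjusted p = 0.0596), without control 1 and control 4 (0.55) or at an adjusted p of 0.01 (0.49); in each of these 1 of the 5 genes passed as higher. Single-array omissions gave Sort1 0.40 to 0.59 and 1 to 2 of the 5 genes higher. All genes higher numbered 502 to 790 and lower 487 to 677 in those omissions, 386 and 389 at an adjusted p of 0.01, and 371 and 405 without control 1 and control 4. Against a 1.5-fold minimum, 94 were higher and 65 lower, Ntrk2 (0.42), Sort1 (0.49) and Lhx2 (-0.66) did not pass, 0 of the 5 genes passed, and the list counts fell to 0 except 1 higher convertase (Pcsk6) and 2 lower neural genes.

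List counts moved as follows. Trk adaptors had 2 to 4 lower and 0 to 1 higher over single-array omissions, 1 lower at 0.01 and without control 1 and control 4, 2 lower after centring on olfactory genes, and 1 higher after quantile normalization. The p75 partners had 0 to 1 higher over single-array omissions, 3 higher with array weights, and 1 higher after quantile normalization, after centring on olfactory genes and with trended robust variances. GDNF family genes had 0 to 1 lower over single-array omissions, 0 lower at 0.01, after centring on olfactory genes and without control 1 and control 4, which also left 1 higher. Serpini1 was lost without control 1 and control 4, which left 0 lower processing genes. ERK feedback targets had 2 to 4 lower over single-array omissions. Rapgef1 lost its call in the mean of its probe sets (-0.17, adjusted p = 0.0865). The causes were not tested.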

Other observations

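Receptors of the GDNF family, another group of neurotrophic factors, changed in both directions. Of 9 measured ligands and receptors, 2 rose, 1 fell and 6 did not pass in limma, with a list median of -0.06. The share that passed was 33.3%, beside 7.38% of all genes, whose median was -0.02. All 9 had a group mean above the guide level, so the shares are not matched for level. Gfra2, the co-receptor of neurturin, had log2 levels of 7.68, 7.54, 8.22 and 7.86 in knockout arrays 5 to 8, and 7.17, 7.12, 7.09 and 7.11 in control arrays 1 to 4, a difference of 0.70 (SE 0.13, limma adjusted p = 0.00832). All knockout arrays were above all controls, and the controls were close together. Gfra4, the co-receptor of persephin, rose by 0.46 (SE 0.08), and Gfra1, the co-receptor of GDNF, had a difference of -0.40 (SE 0.10, limma adjusted p = 0.0365) that passed in 1 of 8 single-array omissions, without control 2, and otherwise had an adjusted p of up to 0.113. Without control 1 and control 4, Gfra2 had an adjusted p of 0.076. Ret, the shared signalling receptor, averaged 6.83 in the knockout and 6.85 in the control group, and Gdnf averaged 7.10 in the knockout and 7.08 in the control group.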
